A study of Mus musculus with 25 samples.

Results

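The keratin and junction genes of the trophectoderm, the outer epithelium of the mouse blastocyst, were followed here as 9 genes, taken by symbol from expression tables of 24708 gene loci with 24257 symbols. They are the keratins Krt8, Krt18, Krt7 and Krt19, the desmosome genes Dsp and Jup, the claudins Cldn4 and Cldn6, and Cdh1. Each symbol was found at 1 locus. Here Cdh1 is the gene of E-cadherin. The Fzr1 protein, whose gene gives a group its label, is also called Cdh1, and the pair are unrelated.

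RNA was sequenced from BDF1 mouse embryos, and 11 of the 25 samples of the series were used. Blastocysts at embryonic day 4.0 carried the genotype labels Fzr1-OE (3 libraries) and Control (2 libraries). Embryos at the 2-cell stage, embryonic day 1.5, were labelled IVF, sIVF and WT (2 libraries each). IVF is in vitro fertilisation, while the meaning of sIVF, how Fzr1 was raised, what the Control embryos received and how many embryos made a library are not stated in the labels. The labels do not say that replicates were separate batches of embryos, so the p-values reflect how much these libraries varied, and that variation may be technical.

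Keratins form intermediate filaments in which a type I chain (Krt18, Krt19) pairs with a type II chain (Krt8, Krt7). The trophectoderm is the first epithelium of the embryo, and it seals the blastocyst cavity with tight junctions while adherens junctions and desmosomes hold its cells together. Keratin filaments anchor at desmosomes, and Krt8 with Krt18 is the pair for which trophectoderm is best known.

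The values were FPKM, fragments scaled by transcript length and by the size of the library, which allow levels of different genes to be compared. From the confidence bounds in the tables, depth was estimated at 9324167 to 10483442 fragments per blastocyst library and 4742698 to 6377606 per 2-cell library. Fzr1 itself had 12.7, 15.5 and 17.1 FPKM in the blastocyst libraries labelled Fzr1-OE, against 16.5 and 16.5 FPKM in Control blastocysts, so its RNA did not set the groups apart in the direction of the label (limma log2 fold change -0.13, SE 0.16, adjusted p = 0.713). Every comparison below goes by the labels. Summed markers of the trophectoderm (14 genes) came to 1250 to 1279 FPKM in Fzr1-OE and 1824 to 2054 FPKM in Control blastocysts, so the blastocyst label was met by its epithelium in both groups. Markers of the epiblast, the inner lineage that forms the fetus, summed to 215 to 246 FPKM in Fzr1-OE and 221 to 231 FPKM in Control blastocysts.

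The 3 members with the highest FPKM in blastocysts were Krt18, Krt8 and Cldn4, and their promoters are shown for that reason. Each runs 5′ to 3′ on the gene's strand, from 250 bases before to 50 bases after the annotated start, and was taken from RefSeq on build GRCm38.p6, which held the promoters of 7 of the 9 members (not Krt19 or Cdh1). Krt18 lies at chr15:102027966-102028265 on the plus strand, Krt8 at chr15:102004293-102004592 on the minus strand and Cldn4 at chr5:134946885-134947184 on the minus strand. Capitals mark matches, on either strand, to any of 9 short motifs, which were written down after these sequences had been seen.
Krt18: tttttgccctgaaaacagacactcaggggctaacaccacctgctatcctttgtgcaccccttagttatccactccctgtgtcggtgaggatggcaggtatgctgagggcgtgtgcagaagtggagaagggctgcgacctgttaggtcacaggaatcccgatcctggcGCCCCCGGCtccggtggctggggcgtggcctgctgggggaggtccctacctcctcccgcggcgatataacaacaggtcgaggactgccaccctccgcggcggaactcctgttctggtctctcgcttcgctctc
Krt8: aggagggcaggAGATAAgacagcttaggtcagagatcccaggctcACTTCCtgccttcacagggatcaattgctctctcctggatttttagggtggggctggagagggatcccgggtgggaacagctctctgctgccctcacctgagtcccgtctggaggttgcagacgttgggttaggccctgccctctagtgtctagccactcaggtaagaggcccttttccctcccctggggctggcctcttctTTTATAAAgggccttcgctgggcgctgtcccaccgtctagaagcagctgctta
Cldn4: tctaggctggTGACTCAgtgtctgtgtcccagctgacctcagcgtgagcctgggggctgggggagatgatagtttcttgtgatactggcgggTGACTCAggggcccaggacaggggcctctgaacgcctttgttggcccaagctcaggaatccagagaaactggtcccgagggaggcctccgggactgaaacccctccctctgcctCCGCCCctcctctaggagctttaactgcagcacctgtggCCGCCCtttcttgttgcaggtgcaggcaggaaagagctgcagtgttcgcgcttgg

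In Krt18 the only match was to a TFAP2 motif (GCCNNNGGC), 83 bases before the start, a motif held by 16.6% of all 32851 promoters of the table. Krt8 matched a GATA motif (AGATAA, in 11.2% of promoters), an ETS motif (GGAAGT, 23.8%) and the TATA box (TATAAA, 13.6%), the last on both strands in overlapping letters. The TATA box matches began 3 bases and 1 base before the annotated start and ran across it. Cldn4 matched an AP-1 motif (TGANTCA, 7.81%) at 2 places and an SP/KLF motif (GGGCGG, 35.7%) at 2 places. Among the other members, Krt7 held 2 TFAP2 matches, 1 ETS match and 4 SP/KLF matches, and 1 TFAP2 match there overlapped an SP/KLF match. Dsp held 1 TFAP2 and 4 SP/KLF matches, with 1 overlap, Jup held 2 SP/KLF matches, and Cldn6 held 2 SP/KLF matches and 1 to a TEAD motif (GGAATG, 14.7%). Motifs for CDX (TTTATNG, 10.9%) and GRHL (AACNNGTT, 4.20%) had no match in these 7 windows. A match gives letters only and does not show that a factor binds.

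On build mm9, which the deposited tables use, Krt7 (chr15:101242834-101258237), Krt8 (chr15:101827142-101834773) and Krt18 (chr15:101858647-101862457) lie on one chromosome, with 23873 bases between Krt8 and Krt18. Krt19 (chr11:100002126-100007233) and Jup (chr11:100230170-100259104) share another. Dsp lies at chr13:38243163-38290446, Cldn4 at chr5:135420993-135422804, Cldn6 at chr17:23816332-23819414 and Cdh1 at chr8:109127268-109194146. No member's locus overlapped another locus in the tables. No annotation of exons for mm9 was used here.

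The keratin genes around these members were mostly listed at 0. On chromosome 15, 19 of 25 keratin loci were at 0 in both Control libraries and 3 reached 1 FPKM on average in Control blastocysts, and they were Krt7, Krt8 and Krt18. On chromosome 11, 20 of 27 were at 0 and 2 reached that level, Krt19 and Krt10, a keratin known from differentiated epidermis. The nearest locus after Krt18 was Eif4b, a translation initiation factor gene at 18.3 FPKM in Fzr1-OE and 22.3 FPKM in Control blastocysts.

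**Figure D1:**
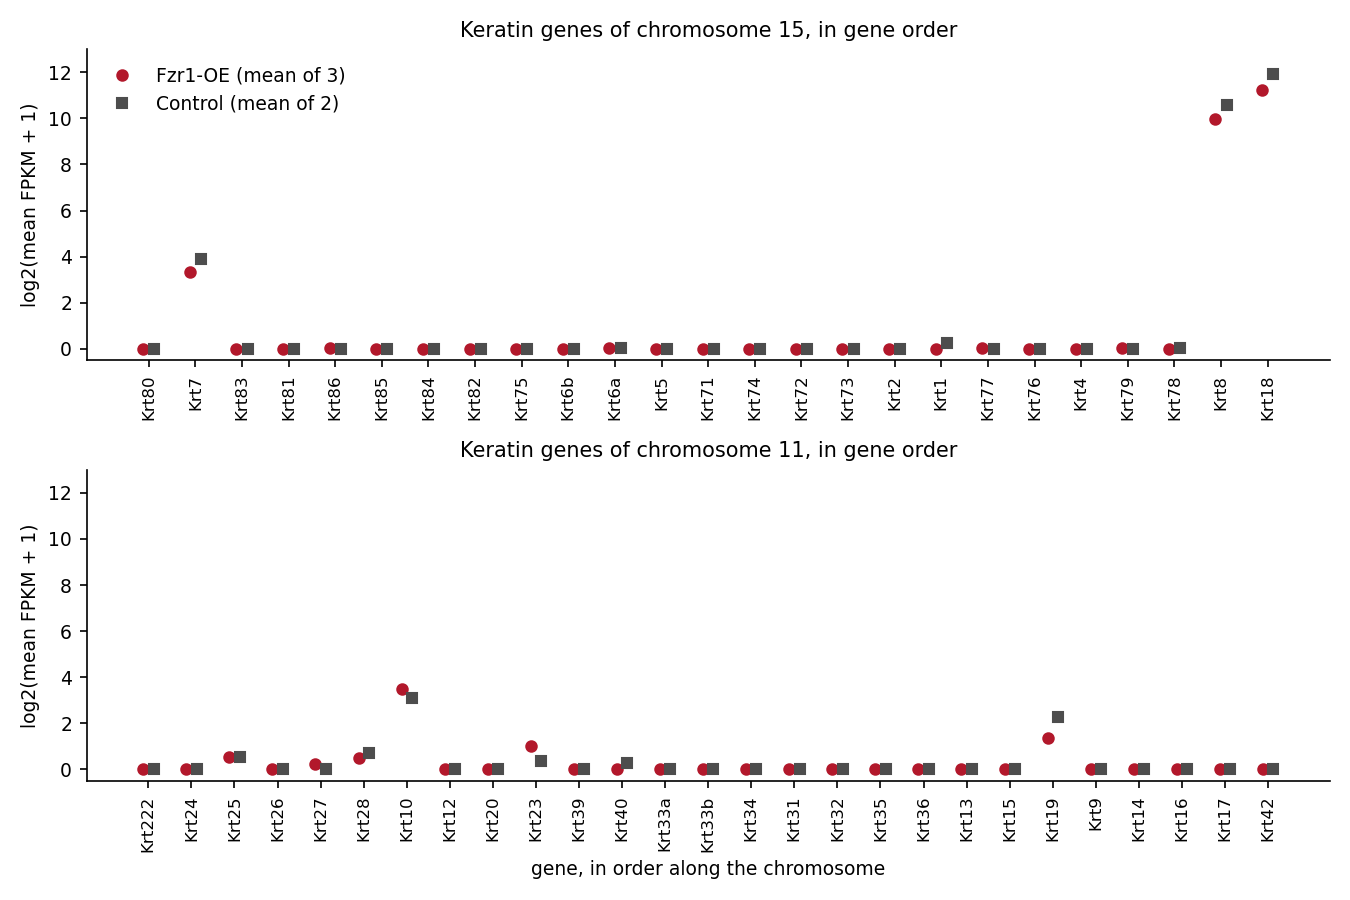
Mean level, as log2(mean FPKM + 1), of keratin loci of chromosomes 15 and 11 in gene order along each chromosome, in Fzr1-OE and Control blastocysts. Krt8 and Krt18 stand far above every other keratin locus, and most loci are listed at 0.

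Krt18, the type I chain of the pair, had 2471, 2320.5 and 2388 FPKM in Fzr1-OE blastocysts, against 3868 and 3860.1 FPKM in Control blastocysts. All 3 Fzr1-OE libraries were below both Control libraries. Counting error, as 2 standard deviations, was 0.718% to 0.937% of a value. Krt18 ranked 13 or 14 among all loci in Fzr1-OE libraries and 5 in both Control libraries.

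Krt8, the type II chain, had 939, 1013 and 1015 FPKM in Fzr1-OE blastocysts, against 1526 and 1489 FPKM in Control blastocysts. Again no library of one group reached the range of the other. Its rank among all loci was 59 to 64 in Fzr1-OE libraries and 29 to 31 in Control libraries.

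Both fell in the libraries labelled Fzr1-OE. The test was limma on log2(FPKM + 1) over 9439 loci that averaged 1 FPKM or more, and a gene was called at an adjusted p under 0.05, which 4.21% of these loci reached in either direction and 1.92% as lower. Krt18 averaged 2393 ± 75.1 FPKM in Fzr1-OE (SD, n = 3) and 3864 ± 5.89 FPKM in Control blastocysts (SD, n = 2), or 61.9% of the Control mean (log2 fold change -0.69, SE 0.04, limma adjusted p = 1.93e-04). Krt8 averaged 989 ± 43.2 FPKM in Fzr1-OE (SD, n = 3) and 1507 ± 26.3 FPKM in Control blastocysts (SD, n = 2), or 65.6% (log2 fold change -0.61, SE 0.05, limma adjusted p = 4.87e-04). Neither passed when no filter was applied (limma adjusted p = 0.146 for Krt18 and 0.129 for Krt8) or without limma's intensity trend (limma adjusted p = 0.0874 for Krt18 and 0.123 for Krt8), while the fold changes stayed the same. In these whole embryos, fewer trophectoderm cells and less keratin RNA per cell cannot be told apart.

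Krt7 and Krt19 are the minor partners of simple epithelia. Krt7, type II, had 7.00, 6.63 and 13.7 FPKM in Fzr1-OE blastocysts, against 13.4 and 14.7 FPKM in Control blastocysts. The third Fzr1-OE library lay within the Control range, so the groups overlapped (log2 fold change -0.64, SE 0.27, limma adjusted p = 0.231). Without that library the limma adjusted p was 0.0489 and the log2 fold change -0.95. Leaving out the first or the second Fzr1-OE library instead gave -0.51 and -0.47 (limma adjusted p = 0.385 and 0.424). Krt19, type I, had 1.78, 0.565 and 2.48 FPKM in Fzr1-OE, against 3.08 and 4.55 FPKM in Control blastocysts. Its groups did not overlap, but counting error was 21.2% to 60.3% of a value and it did not pass (log2 fold change -0.94, SE 0.35, limma adjusted p = 0.182).

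The balance between the chains was compared within each library. The ratio of Krt18 to Krt8 FPKM was 2.63, 2.29 and 2.35 in Fzr1-OE, against 2.54 and 2.59 in Control blastocysts. The Control ratios lay inside the Fzr1-OE range, and the difference of means, Fzr1-OE minus Control, was -0.14. The 4 keratins together made up 0.680%, 0.642% and 0.660% of all FPKM in Fzr1-OE, against 1.02% and 1.04% in Control blastocysts, and Krt8 with Krt18 held 99.5% to 99.8% of that sum in every blastocyst library.

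**Figure D2:**
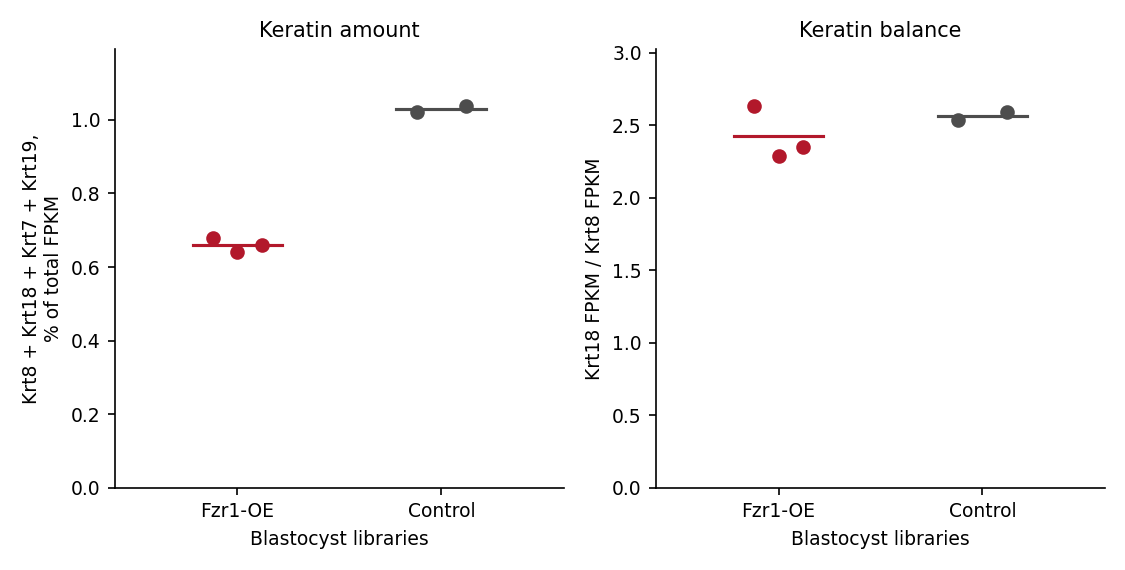
Summed keratin share of all FPKM (percent, left panel) and Krt18 to Krt8 ratio (right panel) in each blastocyst library, Fzr1-OE left of Control. The ratios overlap, from 2.29 to 2.63 in Fzr1-OE and 2.54 to 2.59 in Control, while the shares do not, at 0.642% to 0.680% in Fzr1-OE and 1.02% to 1.04% in Control. Bars mark group means.

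Among the 5 junction members, Cdh1 had the lowest p. E-cadherin is the adhesion molecule of the adherens junction and is needed for the compaction of the embryo. It had 20.6, 21.2 and 18.1 FPKM in Fzr1-OE blastocysts, against 27.9 and 25.3 FPKM in Control blastocysts. The groups did not overlap, yet the difference did not pass (log2 fold change -0.40, SE 0.13, 95% interval -0.70 to -0.10, limma adjusted p = 0.141).

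The claudins, which form the paired strands of tight junctions, differed less. Cldn4 had 75.8, 73.3 and 82.0 FPKM in Fzr1-OE, against 96.0 and 82.9 FPKM in Control blastocysts. The highest Fzr1-OE library was just under the lower Control library (log2 fold change -0.21, SE 0.10, limma adjusted p = 0.286). Cldn6 had 33.5, 36.2 and 37.6 FPKM in Fzr1-OE, against 33.5 and 40.0 FPKM in Control blastocysts, overlapping throughout (log2 fold change -0.04, 95% interval -0.31 to 0.24, limma adjusted p = 0.915).

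Dsp encodes desmoplakin, which ties keratin filaments to the desmosome, and Jup encodes plakoglobin, a plaque protein of desmosomes and adherens junctions. Dsp had 9.75, 7.30 and 8.62 FPKM in Fzr1-OE, against 12.1 and 7.69 FPKM in Control blastocysts. Jup had 11.6, 12.9 and 15.3 FPKM in Fzr1-OE, against 12.9 and 8.95 FPKM in Control blastocysts. Both overlapped between groups, and the 95% intervals of the log2 fold change were -0.67 to 0.33 for Dsp (limma adjusted p = 0.742) and -0.17 to 0.71 for Jup (limma adjusted p = 0.506). These intervals include a fall of Dsp as large as that of Krt8.

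**Figure D3:**
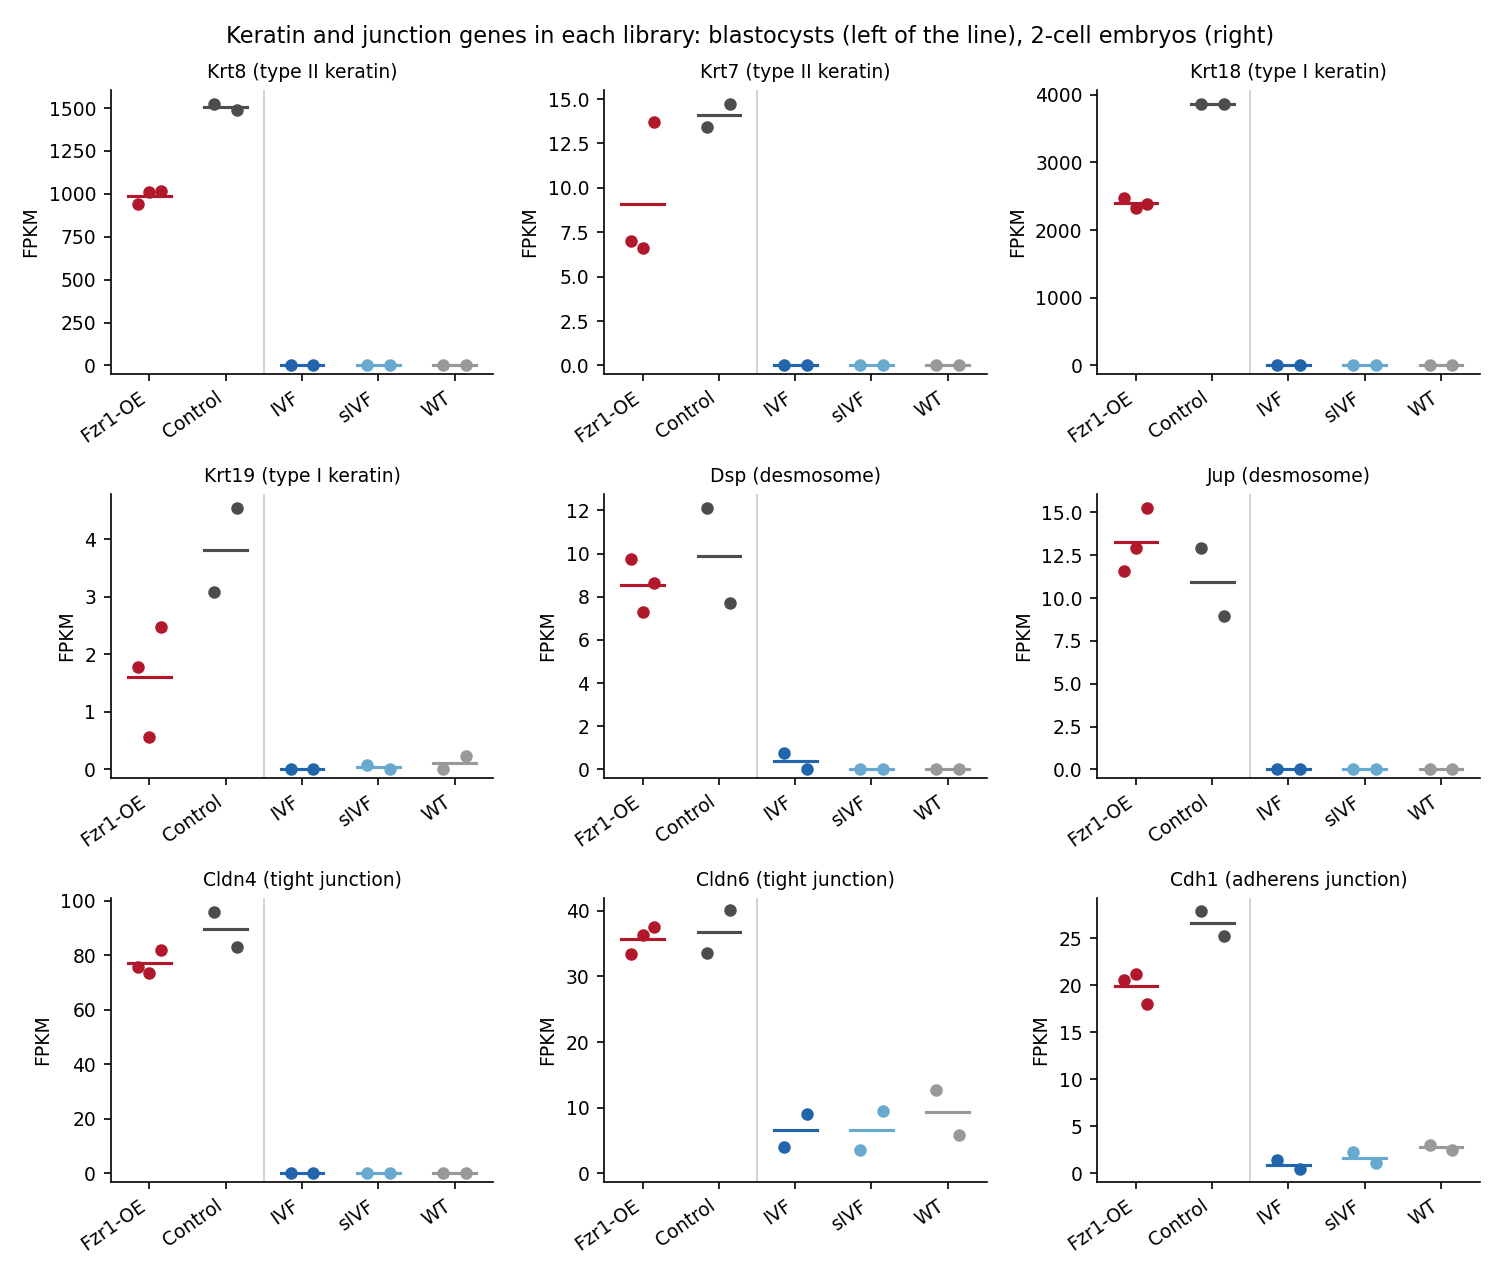
FPKM of each of the 9 genes in each of the 11 libraries, by group, with a bar at each group mean and a linear axis per gene. Krt18 and Krt8 separate the blastocyst groups, while Cldn6, Dsp and Jup overlap, and most members lie near 0 in 2-cell embryos.

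All 9 members were tested in blastocysts, and 2 were called, both lower in Fzr1-OE. Groups did not overlap for 5 members, all lower in Fzr1-OE, where 18.4% of all tested loci were lower without overlap. The median log2 fold change of the 9 was -0.40, beside 0.01 over all tested loci.

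**Figure D4:**
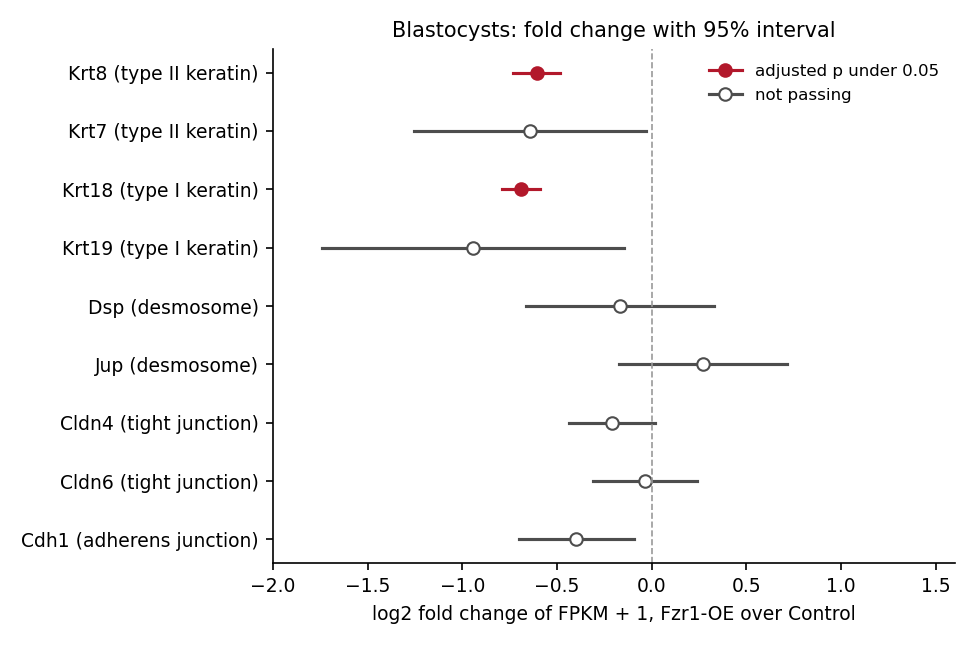
Log2 fold change of each member, Fzr1-OE over Control blastocysts, with its 95% interval. The intervals of Krt18, Krt8, Krt19, Krt7 and Cdh1 lie below 0, and of these only Krt18 and Krt8 passed the limma test adjusted over all loci.

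Per length, the order in Control blastocysts was Krt18, Krt8, Cldn4, Cldn6, Cdh1, Krt7, Jup, Dsp and Krt19. In Fzr1-OE the order differed only in that Jup stood above Krt7. Jup and Dsp overlapped across libraries in Control blastocysts, and Krt7 overlapped with both Jup and Dsp in Fzr1-OE. Within libraries, Jup stood above Dsp in every Control library and above Krt7 in every Fzr1-OE library. Krt7 and Dsp changed order between Fzr1-OE libraries. Counting error bounds of Jup overlapped those of both Krt7 and Dsp in the first Control library. Bounds also overlapped for Krt7 and Dsp in the second Fzr1-OE library and for Jup and Krt7 in the third. The other neighbours did not overlap in either group.

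Other epithelial genes gave context. Of 12 adherens junction genes tested beside the members, 1 was called: Epcam, an epithelial adhesion molecule, fell to 500 ± 10.7 FPKM in Fzr1-OE (SD, n = 3), against 613 ± 6.63 FPKM in Control blastocysts (SD, n = 2; log2 fold change -0.29, SE 0.06, limma adjusted p = 0.0223). Of 20 tight junction genes none was called, and their median log2 fold change was -0.14. The nearest to the threshold, picked after their values were seen, were Cldn7 at 106 ± 10.6 FPKM in Fzr1-OE and 142 ± 13.6 FPKM in Control blastocysts (limma adjusted p = 0.0586) and Cgn, which encodes cingulin of the tight junction plaque, at 16.3 ± 3.53 FPKM in Fzr1-OE and 35.7 ± 16.2 FPKM in Control blastocysts (limma adjusted p = 0.0608). None of 5 desmosome genes was called (median 0.03), nor any of 5 linker and basal adhesion genes (median 0.07), nor Krt10. The desmosome gene Perp averaged 58.4 FPKM in Fzr1-OE and 46.0 FPKM in Control blastocysts (limma adjusted p = 0.117). Krt10 averaged 10.2 FPKM in Fzr1-OE and 7.51 FPKM in Control blastocysts (limma adjusted p = 0.313). Perp and Krt10 were higher without overlap, as were 19% of all tested loci.

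**Figure D5:**
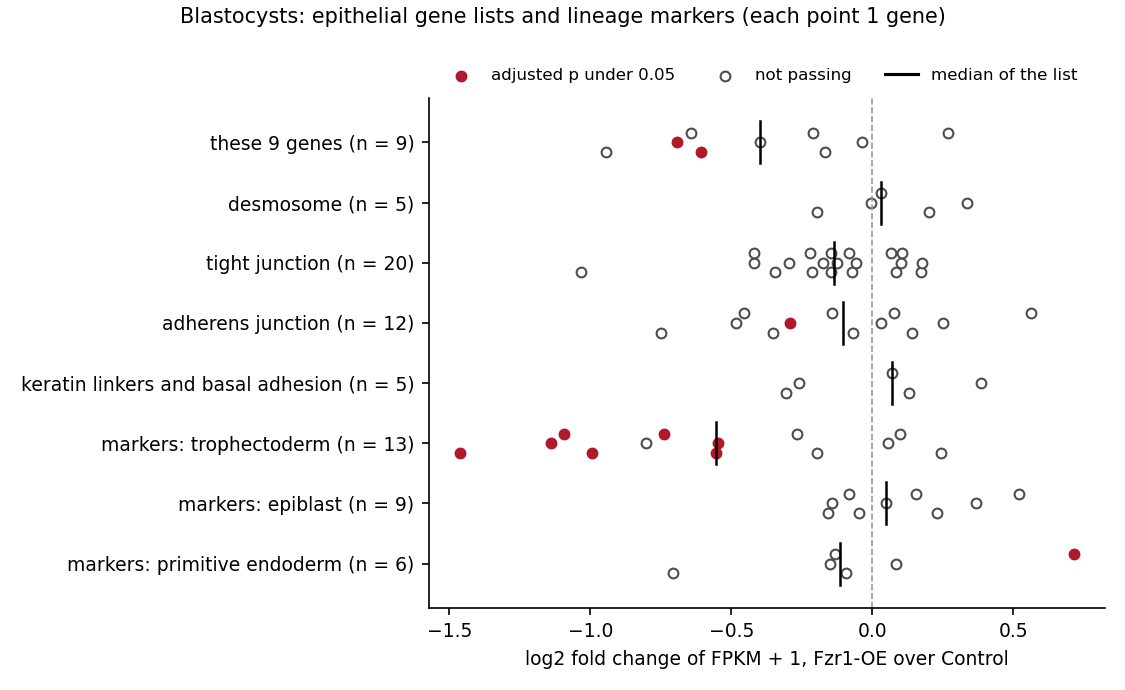
Log2 fold changes, Fzr1-OE over Control blastocysts, of the tested genes of each epithelial list and marker list, with called genes marked. Desmosome genes centre near 0 (median 0.03), while trophectoderm markers centre below it (median -0.55).

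Trophectoderm markers mostly moved with the keratins. Of 13 tested, 10 had lower values in Fzr1-OE, 7 of them called, and none was called higher. Over all tested loci, 1.92% were called lower. The median log2 fold change of the 13 was -0.55. Tfap2c (log2 fold change 0.25), Klf5 (0.10) and Tead4 (-0.19) were not called (limma adjusted p from 0.483 to 0.728). Plac1, a placental gene, fell to 49.5 FPKM in Fzr1-OE, against 138 FPKM in Control blastocysts (log2 fold change -1.46, limma adjusted p = 1.93e-04). Elf5 (-1.14), Gata2 (-1.09) and Id2 (-0.99), transcriptional regulators of the trophoblast lineage, fell on the same scale (limma adjusted p from 0.00829 to 0.0189). Cdx2, the defining trophectoderm factor, was at 8.36 FPKM in Fzr1-OE and 7.99 FPKM in Control blastocysts (limma adjusted p = 0.923), and Gata3 was at 148 FPKM in Fzr1-OE and 178 FPKM in Control blastocysts (limma adjusted p = 0.0838).

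Among markers of other cells, some differed and others did not. None of 9 epiblast markers was called. Of 6 primitive endoderm markers, 4 had lower values in Fzr1-OE and only Gata6 was called. Gata6 rose (24.0 FPKM in Fzr1-OE, against 14.3 FPKM in Control blastocysts, limma adjusted p = 0.0386). Among the 2-cell stage markers, Zfp352 and Tdpoz4 averaged 2.92 and 6.61 FPKM in Fzr1-OE, while both were listed at 0 in Control blastocysts. Both were called higher (limma adjusted p = 0.00603 and 3.08e-04), as were 2.29% of tested loci. They reached the filter only through the Fzr1-OE libraries, so these calls say nothing beyond their levels. Usp17lc averaged 1.31 FPKM in Fzr1-OE and 0.049 FPKM in Control blastocysts. Zscan4c, Zscan4d, Zscan4f and Usp17la were at 0 in every blastocyst library. Uterine epithelium markers (7 genes, 3 or 4 above 0) summed to 143 to 179 FPKM in Fzr1-OE and 269 to 318 FPKM in Control blastocysts, led by Wfdc2, which was called lower (limma adjusted p = 0.00289). Blood cell markers summed to 0.639 to 1.17 FPKM in Fzr1-OE and 0.966 to 2.11 FPKM in Control blastocysts. The part of these markers in the keratin difference was not tested.

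In 2-cell embryos, before any epithelium has formed, the 4 member keratins were at or near 0. Krt8 had 0.0354 and 0 FPKM in IVF, 0.565 and 0 FPKM in sIVF, and 0.451 and 0.643 FPKM in WT embryos. Krt18 was listed at 0 in both IVF libraries, at 1.25 and 0 FPKM in sIVF, and at 0.0678 and 0.693 FPKM in WT embryos. Where they were above 0, these values stood for 1 to 15 fragments of Krt8 and 1 to 18 of Krt18. Both IVF libraries were below both WT libraries for either gene, as were 19.3% of the 8246 loci tested. For Krt18 this rested on 1 fragment in the first WT library, against 0 FPKM in both IVF libraries. The sIVF libraries overlapped both other groups. Neither gene reached the filter, so the 2-cell test did not include them, and in the fit with no filter neither passed in any of the 3 comparisons (limma adjusted p = 1).

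Krt7, Krt19, Jup and Cldn4 stayed below 1 FPKM in all 6 libraries. Dsp had 0.770 FPKM in the first IVF library and at most 0.0145 FPKM in the other 5. Only Cdh1 and Cldn6 reached the filter of 1 FPKM on average.

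Cdh1 had 1.38 and 0.454 FPKM in IVF, 2.30 and 1.06 FPKM in sIVF, and 3.01 and 2.53 FPKM in WT embryos. Both IVF and both sIVF libraries were below both WT libraries, as were 19.3% of 8246 tested loci in IVF and 15.3% in sIVF. Neither difference passed (IVF against WT log2 fold change -1.02, SE 0.69, limma adjusted p = 0.626, and sIVF against WT -0.53, SE 0.69, limma adjusted p = 0.890). These comparisons share the WT libraries. Leaving out each replicate moved these values to between -1.37 and -0.66 for IVF, and to between -0.87 (without the first sIVF library) and -0.19 (without the second sIVF library) for sIVF. Markers of oviduct epithelium (8 genes, 1 to 3 above 0) summed to 8.35 to 8.89 FPKM in IVF, 0.263 to 1.95 FPKM in sIVF and 0.113 to 0.326 FPKM in WT embryos. In every library the sum was led by 1 gene, Cfap126, at 7.95 and 8.35 FPKM in IVF. Ovgp1 and Dnah5 had 0.899 and 0.0399 FPKM in the first IVF library and 0 in the second. Pax8, Foxj1, Krt5, Sox17 and Wt1 were at 0 in both IVF libraries. The part of these markers in the Cdh1 values was not tested.

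Cldn6 had 4.10 and 9.04 FPKM in IVF, 3.56 and 9.54 FPKM in sIVF, and 12.8 and 5.82 FPKM in WT embryos. All 3 groups overlapped, and no difference passed (limma adjusted p = 0.849 for IVF against WT, 0.896 when sIVF was set against WT and 0.992 when it was set against IVF). Between sIVF and IVF, Cdh1 did not pass either (log2 fold change 0.49, SE 0.69, limma adjusted p = 0.832). No member was called in any of the 3 comparisons, and none had an unadjusted p under 0.05. In data simulated for IVF against WT, limma found 5% of 4-fold changes at each gene's residual spread and 58% at the moderated spread. These changes were made in FPKM + 1, and only at loci averaging at least 5 FPKM. Cdh1 lay below that level in every 2-cell library, so these rates do not cover it. Over all loci limma called 1 of 8246 for IVF against WT (0.0121%) and none for either sIVF comparison, with 1024 at an unadjusted p under 0.05 for IVF against WT, 585 between sIVF and WT and 974 between sIVF and IVF.

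Across stages, Control blastocysts stood above WT 2-cell embryos for all 9 members, in a fit of all 11 libraries in which 45.8% of 9762 loci were called higher. The filter was reached by 7 members only through the blastocysts, so their calls say nothing beyond their levels. Cdh1 averaged 26.6 ± 1.81 FPKM in Control blastocysts and 2.77 ± 0.335 FPKM in WT 2-cell embryos (SD, n = 2 each), a log2 difference of 2.87 (SE 0.33, limma adjusted p = 7.72e-05). Cldn6 averaged 36.8 ± 4.62 FPKM in Control blastocysts and 9.30 ± 4.92 FPKM in WT 2-cell embryos (SD, n = 2 each), a log2 difference of 1.96 (SE 0.49, limma adjusted p = 0.00656). Under quantile normalization the Cldn6 difference was 1.07 and did not pass (limma adjusted p = 0.0891). The median over all loci was 0.88 on the same scale, and stage and any batch of library making cannot be told apart.

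The loci whose log2(FPKM + 1) most followed the mean of Krt8 and Krt18 over the 11 libraries included Ptgr1, Capg, Camk1, BC053393 and Serpinb6c, with Pearson r from 0.9991 to 0.9996 among 5807 loci. The libraries fall into 2 stages, and the measure mostly reflects that step, since 243 loci exceeded 0.99. Capg, an actin filament capping protein, averaged 248 ± 20.4 FPKM in Fzr1-OE and 425 ± 12.4 FPKM in Control blastocysts. The mean of each of these 5 was at most 0.503 FPKM in any 2-cell group.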

How the data were processed

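Per the labels' protocols, lysates were reverse transcribed, and the cDNA was amplified and then fragmented for paired-end libraries. For each library the authors deposited FPKM per gene locus with lower and upper bounds, per the file headers. The submitters' processing notes name HISAT2 2.1.0 and Cufflinks 2.2.1 among other tools, without roles, and the build mm9. Amplification can distort levels between genes, and FPKM are relative to all RNA of a library.

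The members and gene lists were chosen with earlier results of these data known. Values were tested with limma 3.58.1 (R 4.3.3, two-sided, intensity trend, Benjamini-Hochberg over all loci) on log2(FPKM + 1), which understates changes of low genes, at loci averaging 1 FPKM or more. The 5 blastocyst libraries shared a fit, the 6 of 2-cell embryos another, and all 11 entered the fit across stages. Groups came from sample titles. Depth was inferred by reading the deposited bounds as 2 Poisson standard deviations and covers counting error only.

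Named genes were the 9 members, Fzr1, up to 4 called genes per direction and list, defining markers, and the 6 loci most like Krt8 and Krt18, of which 1 is not reported here. Cldn7, Cgn, Perp, Krt10, Krt12, Krt25, Krt222, Eif4b and Krt28 were named outside this rule, after their values were seen. So were further genes of the trophectoderm, 2-cell stage and oviduct marker lists. The likeness planned over the 5 blastocyst libraries was not computed, since correlations need at least 6 samples. The fits were tested on simulated data at each gene's residual spread. They recovered few of the changes put into 2-cell embryos, and a version with the moderated spread was added after that was seen. Alternatives changed the pseudocount (0.1), the filter (none, or 5 FPKM), the scaling (upper quartile, or quantile normalization) and the variance model (robust, without the trend, with a replicate block), or left out each replicate or all libraries not compared. Fat, methylation and H3K9me3 samples were not analysed here. Python 3.11.15, pandas 2.3.3, numpy 2.4.6 and matplotlib 3.10.9 were also used.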

Additional observations from a re-analysis of the deposited data

How the results depend on the processing

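In blastocysts 2 members were called. None was called without a filter or without the intensity trend, and 1 was called with the replicate block, in which Krt18 kept its call (limma adjusted p = 0.0379) and Krt8 did not (limma adjusted p = 0.0521). Without a filter, 8417 of 24708 loci had no spread between libraries and limma's prior degrees of freedom were 0.691, against 6.39 with the filter. Without the trend they were 2.57. Leaving out each replicate gave 2 to 3 called members, 3 without the third Fzr1-OE library, where Krt7 joined. Over all 13 alternatives the log2 fold change was -0.71 to -0.64 for Krt18 and -0.63 to -0.56 for Krt8. Calls over all loci ranged from 30 to 498, beside 397.

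The replicate numbers share only a number, since the labels tie nothing to them. Deviations of same-numbered libraries correlated at -0.0391 to 0.0269 in blastocysts and -0.00313 to 0.0739 in 2-cell embryos.

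Signs turned only for Cldn6 and Dsp, neither called there. In blastocysts Cldn6 was 0.013 with upper-quartile scaling and -0.16 to 0.090 when each replicate was left out, and Dsp -0.47 to 0.13. Cldn6 in 2-cell embryos ranged, with each replicate left out, from -0.95 to 0.070 for IVF against WT, -1.09 to 0.12 for sIVF against WT and -0.65 to 0.56 for sIVF against IVF, which was 0.016 with quantile normalization. Between stages, quantile normalization ended the calls of Cldn6 and Krt19 (limma adjusted p = 0.0891 and 0.0549). Of 304 gene values under alternatives, 285 kept their sign and side of the threshold. The Krt18 to Krt8 ratio, Fzr1-OE minus Control, differed by -0.24 to -0.07 with each blastocyst library left out. No 2-cell comparison called a member under any alternative run. The cause of calls lost was not tested. At 2-cell depth, a value above 0 of Krt8, Krt18, Krt7 or Krt19 rests on 18 fragments or fewer.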

Other observations

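Of the 48 keratin genes outside the 4 members, 5 reached 1 FPKM in a 2-cell library. Krt28, known as a keratin of the hair follicle, was singled out after its values were seen. It had 42.6 and 18.4 FPKM in IVF, 10.6 and 6.12 FPKM in sIVF, and 23.9 and 13.8 FPKM in WT 2-cell embryos. In blastocysts it had 0.478, 0.511 and 0.286 FPKM in Fzr1-OE, and 1.28 and 0 FPKM in Control. All 6 libraries of 2-cell embryos were above all 5 of blastocysts, the opposite order to that of Krt8 and Krt18. Between Control blastocysts and WT embryos alone, 26.1% of 9762 tested loci were lower in blastocysts without overlap. Krt12 kept the order of Krt28, Krt10 had the reverse, and Krt222 and Krt25 overlapped between stages. The IVF and WT libraries of Krt28 overlapped. Both sIVF libraries were below them, as were 15.3% of 8246 tested loci against WT and 21% against IVF. Stage and any batch cannot be told apart.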
